A study of Mus musculus with 11 samples.

Results

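The Id genes and the BMP pathway that controls them are described here in mouse embryonic stem (ES) cells, through 9 genes chosen by name: Id1, Id2, Id3, Id4, Bmp4, Bmpr1a, Smad1, Smad5 and Smad6. All 9 were listed in each of 5 single-cell tables, which named between 21926 and 23139 genes, and 8 of them were among the 12588 genes of a bulk table, which had no row for Smad6. The single-cell libraries were made by inDrop, in which each cell is captured in a droplet and each transcript is counted once by its unique molecular identifier (UMI), with 1 library per condition. E14 cells, a wild-type ES line, were grown on tissue-culture plastic with serum and LIF, on plastic in 2i with LIF, or embedded in agarose microgels with serum and LIF. A further pair of libraries came from lines given plakoglobin (Jup) under the CAG promoter, which drives expression without induction, and both were grown with serum and LIF on plastic. Their genotypes are labelled PGHIGH and PGLOW, and their parent line is not named in the labels. The bulk libraries were made with Smart-seq2 from 1000 cells each of a line labelled Rex1GFPd2, which the sample titles call wild type. The cells were in 2i with LIF, with 3 replicates in gel and 3 on plastic. LIF was thus common to all 11 samples, and serum was present in 4 of the 5 single-cell libraries and in none of the bulk ones.

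BMP ligands bind a receptor complex of type I and type II serine/threonine kinases, which phosphorylates SMAD1, SMAD5 and SMAD9, and these enter the nucleus with SMAD4. The Id genes are the classic direct targets of this pathway. Their products are helix-loop-helix proteins that lack a DNA-binding region and hold E proteins, such as those of Tcf3, Tcf4 and Tcf12, in inactive pairs. In mouse ES cells, serum is a source of BMP activity, and BMP together with LIF is known to maintain self-renewal through Id genes, whereas 2i replaces serum with inhibitors of MEK and GSK3.

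Values in the single-cell tables are given as CPM, UMIs scaled to 1000000 per library, over barcodes with at least 1000 UMIs, which are called cells. The lines labelled PGLOW and PGHIGH are called the libraries labelled JupLow and JupHigh. The wild-type libraries held 725 cells (2017950 UMIs) in serum, 2889 (8284254) in 2i and 112 (236195) in gel, and the Jup lines 1200 (2878334) in JupLow and 2153 (4310792) in JupHigh. No cell barcode was shared between any pair of libraries. Jup itself was at 36.7 CPM in wild type in serum, 46.7 in 2i, 38.1 in gel, 37.9 in JupLow (95% interval 31.1 to 45.7) and 47.8 in JupHigh (41.5 to 54.8), and with 28.8 to 46.0 in wild type in serum the intervals of both lines overlapped with wild type. All 8 ES cell markers listed were detected in each library except Sox2 in wild type in serum, where it had 0 UMIs. That table also stood apart for genes that overlap another gene: differences of 8-fold or more from it fell on 12.4% to 15.1% of overlapping genes and on 1.03% to 3.80% of the others, against 1.24% and 1.29% between the libraries labelled JupHigh and JupLow. Id1, Id2, Id3, Smad1 and Smad6 overlap no other gene in the GENCODE M21 annotation. Id4, Bmp4, Bmpr1a and Smad5 each overlap 1 to 3, so their ratios to wild type in serum are less certain. With 1 library per condition the single-cell differences have no replicate check and no test, and the intervals below cover counting error only.

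The promoters of Id2, Id3 and Smad6 are shown because Id2 and Id3 are targets whose levels followed different orders over the libraries and Smad6 carries the palindrome to which SMAD proteins bind. RefSeq gives windows on GRCm38.p6 from 250 bases before to 50 after the start of transcription for 8 of the 9 members, Id1 being the other. The letters GGCGCC and GGAGCC, GC-rich elements through which SMAD1 and SMAD5 bind, and GTCTAGAC, the SMAD palindrome, were searched on both strands, and matches are in capitals. The windows lie on the minus strand at chr12:25096043-25096342 for Id2, on the plus strand at chr4:136143572-136143871 for Id3 and on the minus strand at chr9:64022010-64022309 for Smad6.
Id2: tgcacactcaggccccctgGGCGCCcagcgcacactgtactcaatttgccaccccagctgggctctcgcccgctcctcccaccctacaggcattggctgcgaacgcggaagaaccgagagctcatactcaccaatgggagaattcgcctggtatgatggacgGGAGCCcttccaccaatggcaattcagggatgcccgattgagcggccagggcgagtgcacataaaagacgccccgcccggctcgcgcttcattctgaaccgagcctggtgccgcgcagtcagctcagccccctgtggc
Id3: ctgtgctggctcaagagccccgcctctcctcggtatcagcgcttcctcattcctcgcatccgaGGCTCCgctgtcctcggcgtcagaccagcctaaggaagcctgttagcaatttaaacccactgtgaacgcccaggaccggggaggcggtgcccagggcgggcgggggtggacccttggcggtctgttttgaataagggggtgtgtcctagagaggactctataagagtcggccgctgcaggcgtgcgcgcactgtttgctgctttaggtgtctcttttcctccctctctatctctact
Smad6: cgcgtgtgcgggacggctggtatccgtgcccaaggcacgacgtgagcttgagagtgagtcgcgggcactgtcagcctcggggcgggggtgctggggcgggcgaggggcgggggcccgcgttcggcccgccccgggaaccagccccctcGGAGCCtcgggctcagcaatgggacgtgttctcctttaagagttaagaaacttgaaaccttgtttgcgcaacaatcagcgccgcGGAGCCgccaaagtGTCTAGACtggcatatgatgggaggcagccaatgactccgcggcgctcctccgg
The Id2 window held GGCGCC 231 bases before the start, a match found in 11.9% of all 32841 promoter windows, and GGAGCC, found in 30.9%. The Id3 window held GGAGCC alone, on the opposite strand. In Smad6, GTCTAGAC began 4 bases before the start, and 0.213% of all windows held it. Smad6 also held GGAGCC at 2 places. The Id4 window held both GGCGCC and GGAGCC, that of Bmpr1a GGCGCC, that of Bmp4 GGAGCC, and that of Smad1 none of the 3. Of 3 windows listed for Smad5, 2 held GGCGCC and the other held GGAGCC. These matches describe letters only.

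Against wild type in serum, Id1 and Id2 differed in the same direction as each other in 2i, JupLow and JupHigh, and Id3 shared that direction in JupLow alone. Both were far lower in 2i than in serum in wild-type cells and lower in the library labelled JupHigh, though that line was also grown in serum, while Id3 was about level between serum and 2i and higher in both Jup lines. Id1 (chr2:152736251-152737410) was at 115 CPM in wild type in serum, 26.8 in 2i, 139.7 in gel, 259.5 in the JupLow library and 43.1 in the JupHigh library. From the lowest level the order was 2i, JupHigh, wild type in serum, gel and JupLow, and the counting intervals of neighbours overlapped only for serum (101 to 131) and gel (96.2 to 196). Id2 (chr12:25093799-25097140) was at 60.0 CPM in wild type in serum, 4.22 in 2i, 33.9 in gel, 132 in JupLow and 13.7 in JupHigh. Its order was that of Id1 except that gel, with 8 UMIs, lay below serum, with overlapping intervals for gel and both of its neighbours. Id3 (chr4:136143497-136145755) was at 64.4 CPM in wild type in serum, 69.0 in 2i, 102 in gel, 173 in JupLow and 148 in JupHigh. Its intervals separated the 2 Jup lines from wild type in serum and in 2i, and did not separate serum from 2i. Id4 (chr13:48261228-48266026), a member of the family with a known role in neural precursors, stayed between 4.18 and 14.0 CPM and was highest in 2i. Its gel value rests on 2 UMIs, with an interval of 1.03 to 30.6 CPM, so gel was not separated from 2i.

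**Figure D1:**
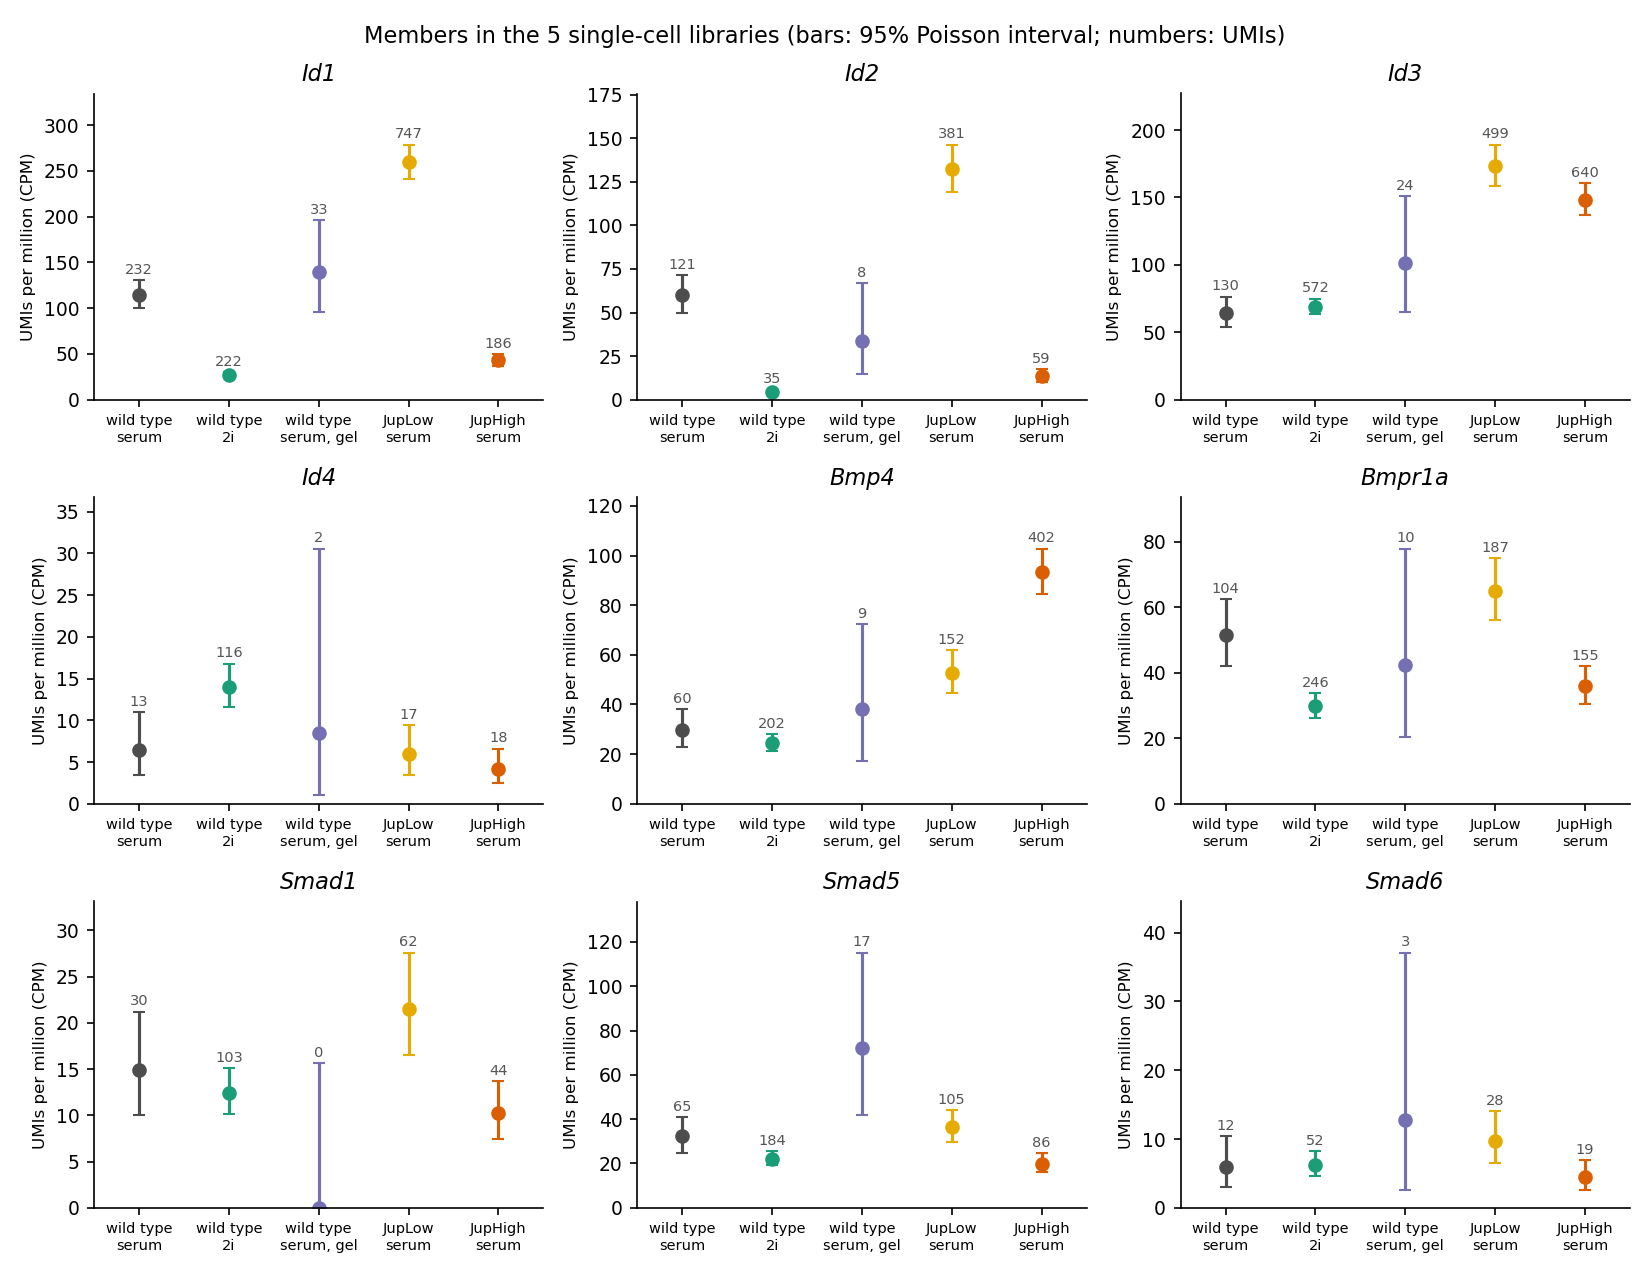
Level of each member in CPM (vertical axis, starting at 0) in the 5 single-cell libraries, with 95% Poisson intervals and the number of UMIs above each point. Id1 and Id2 are low in 2i and in the library labelled JupHigh, whereas Id3 is highest in both Jup lines and Bmp4 in JupHigh.

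The wild-type libraries in 2i and in serum ask how the genes differ between these media. The 2i medium both lacks serum and adds inhibitors of MEK and GSK3, and these changes cannot be told apart here. On the log2 scale the ratio of 2i to serum was -2.10 (95% counting interval -2.37 to -1.83) for Id1 and -3.83 (-4.41 to -3.27) for Id2, that is 4.29-fold and 14.2-fold lower. Id3 had a ratio of 0.10 (-0.18 to 0.39), whose interval leaves out any 2-fold difference. For a count of sizeable differences, genes were taken that differed 2-fold or more and reached 50 CPM in at least 1 of the libraries compared. Among the 4 members at that level, 2 were lower in 2i and 0 were higher, where 14.3% of the 4232 such genes were lower and 10.9% were higher. Id4 had a ratio of 1.12 (0.29 to 2.07) on 13 UMIs in serum, below the level of the count. Its ratio was 0.51 (-0.76 to 2.05) with cells thinned to 1000 UMIs, 0.62 (0.14 to 1.13) over every deposited barcode and 1.84 (0.67 to 3.31) without the cells with 3 or more primitive endoderm UMIs, an alternative chosen after seeing the data, which held 7 of the 13 UMIs. Every deposited barcode is an unlike set in these libraries. In serum 5905 of 8317 barcodes had under 500 UMIs, against 1 of 4697 in 2i.

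The libraries labelled JupLow and JupHigh lay on opposite sides of wild type in serum for Id1 and Id2. In JupLow, the log2 ratio to wild type in serum was 1.17 (0.96 to 1.39) for Id1, 1.14 (0.84 to 1.45) for Id2 and 1.43 (1.15 to 1.72) for Id3. These 3 were the higher ones among 5 members at 50 CPM or more, with 0 lower, against 6.07% higher and 7.19% lower of all genes at that level. The count fell to 1, Id3, over every deposited barcode, where Id1 had a ratio of 0.87 and Id2 of 0.81, and to 2, without Id2, when cells were thinned to 1000 UMIs (0.78). In JupHigh, the ratio to wild type in serum was -1.41 (-1.70 to -1.13) for Id1, -2.13 (-2.61 to -1.67) for Id2 and 1.20 (0.93 to 1.49) for Id3. Among 5 members, 2 were higher, Id3 and Bmp4, and 2 were lower, against 7.75% higher and 13.4% lower of all genes. These comparisons share the wild-type serum library, so they are not independent of each other.

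JupHigh set directly against JupLow does not involve that library. The log2 ratio was -2.59 (-2.83 to -2.35) for Id1 and -3.27 (-3.69 to -2.88) for Id2, or 6.01-fold and 9.67-fold lower in JupHigh, while Id3 was at -0.22 (-0.39 to -0.05). The interval of Id3 held 0 over every deposited barcode (-0.09), when thinned (-0.18) and under median-ratio scaling (-0.12). It also held 0 without cells with 3 or more UMIs of the primitive endoderm list (-0.14). Of 5 members at 50 CPM or more, 2 were lower in JupHigh and 0 higher, where 6.97% of all genes were lower and 2.33% higher. Gel against plastic in serum gave 1 member higher of 5, Smad5, and 0 lower, with 7.5% of genes higher and 10.7% lower. In that comparison the ratios of Id1 (0.28, -0.29 to 0.81), Id2 (-0.82, -2.07 to 0.20) and Id3 (0.66, -0.04 to 1.29) all had intervals that hold 0. Among cells with 2000 UMIs or more the ratio was 0.77 (0.14 to 1.34) for Id1 and 0.94 (0.13 to 1.67) for Id3, and over every deposited barcode it was -1.16 (-1.89 to -0.51) for Id2, -0.31 (-0.71 to 0.07) for Id1 and 0.05 (-0.44 to 0.51) for Id3. With thinned cells Id3 was at 0.19 (-1.02 to 1.23). Without cells with 3 or more UMIs of the primitive endoderm list it was at 0.74 (0.03 to 1.40). The gel library gave 112 cells, 45 with 2000 UMIs or more and 891 barcodes in all, and over its 112 cells the interval of each Id ratio spanned more than 2-fold, so small differences were not detectable there.

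**Figure D2:**
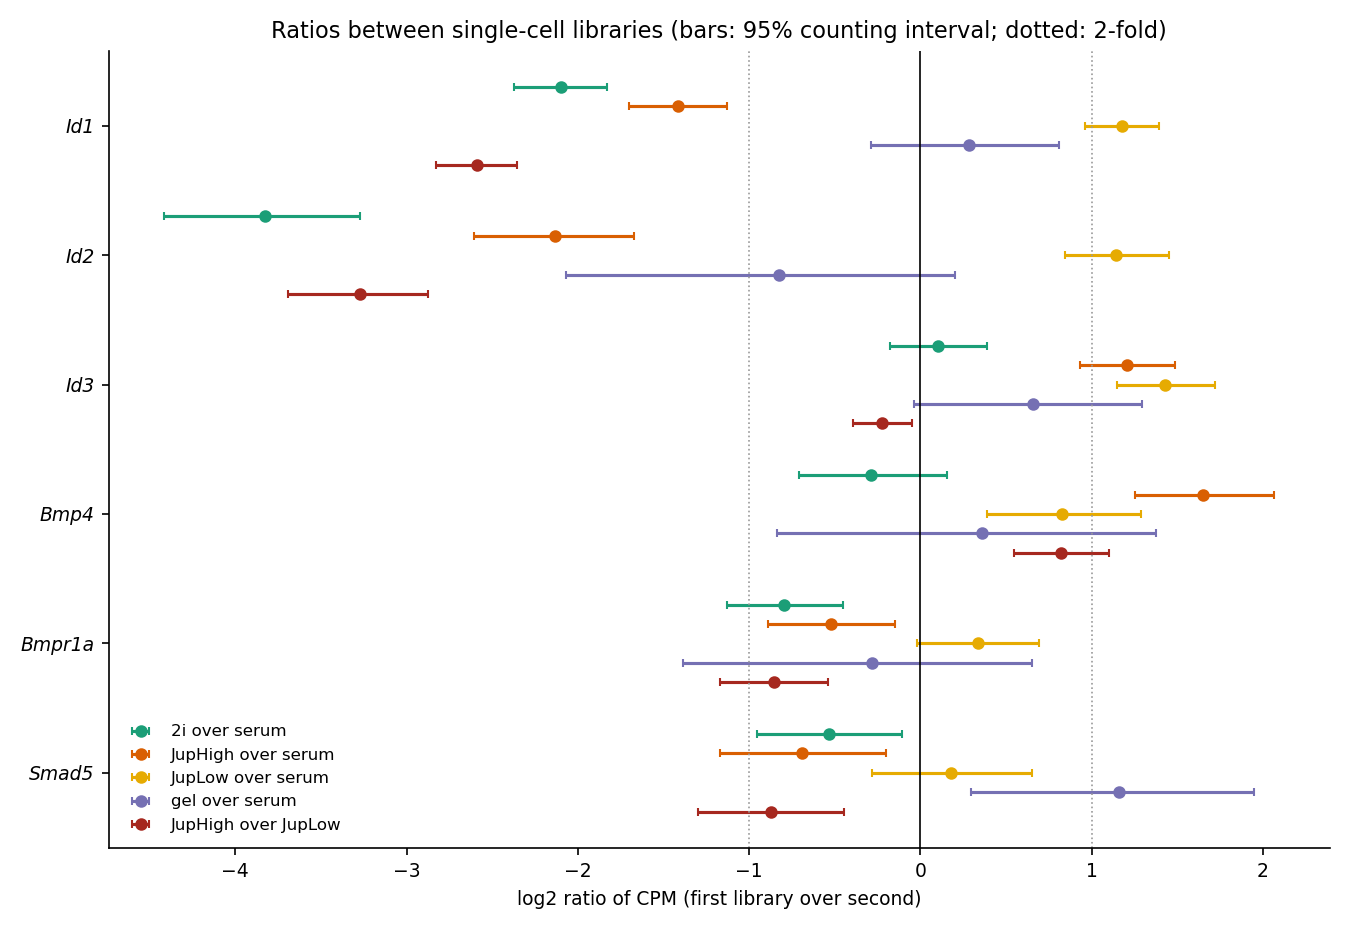
Log2 ratio of CPM (horizontal axis) between pairs of single-cell libraries for 6 members, with 95% counting intervals and dotted lines at 2-fold. Id1 and Id2 lie left of 0 for 2i over serum, JupHigh over serum and JupHigh over JupLow, and right of 0 for JupLow over serum, while Id3 lies right of 0 in both ratios of the Jup lines to serum.

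Because the libraries differ in depth, with median UMIs per cell from 1732 in gel to 2465 in 2i, each cell was thinned to 1000 UMIs before shares of cells were compared. Id1 was then seen in 8.55% of cells of wild type in serum (95% exact binomial interval 6.62 to 10.8), 2.84% in 2i (2.26 to 3.51), 10.7% in gel (5.66 to 18.0), 14.9% in JupLow (13.0 to 17.1) and 4.13% in JupHigh (3.33 to 5.06). Unthinned, the shares were 19.6%, 6.89%, 15.2%, 25.2% and 6.97% in the same order. Id2 was seen after thinning in 6.62%, 0.312%, 2.68%, 10.9% and 1.30% of cells, and Id3 in 6.62%, 5.26%, 6.25%, 12.8% and 12.4%. Before thinning these were 12.0%, 1.21%, 5.36%, 19.1% and 2.60% for Id2 and 12.7%, 14.5%, 13.4%, 20.9% and 21.8% for Id3. After thinning to 1000 UMIs, the shares kept the order seen in CPM, except that Id3 in 2i and in gel stood slightly under serum, with overlapping intervals. The order of the Jup lines for Id3 turned among cells with 2000 UMIs or more thinned to 2000, at 24.4% in JupHigh and 19.1% in JupLow, so no order between them is read from these shares. Unthinned, Id1 in gel stood below serum, and Id3 in JupHigh above JupLow and in gel below 2i. Cells known to lack these genes were not part of the tables, and barcodes under 500 UMIs held Id1 at 125 CPM in wild type in serum, 182 in JupLow and 50.1 in JupHigh and 76.7 in gel, above the level in cells for serum and JupHigh and below it for JupLow and gel. In the same barcodes of serum, JupLow, JupHigh and gel, in that order, Id2 was at 76.0, 121, 13.8 and 49.3 CPM. Id3 was at 61.7, 133, 143 and 43.8 CPM there, and Bmp4 at 33.2, 42.4, 93.2 and 16.4 CPM. In JupHigh the levels of Id2, Id3 and Bmp4 in these barcodes were near those in cells. The same held in wild type in serum for Id3 (64.4 CPM in cells), Bmp4 (29.7) and Id1 (115). It also held for Id2 in JupLow (132 in cells). In 2i only 1 barcode had under 500 UMIs, so no such level is given there. The part of free RNA in the shares of cells was not tested.

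**Figure D3:**
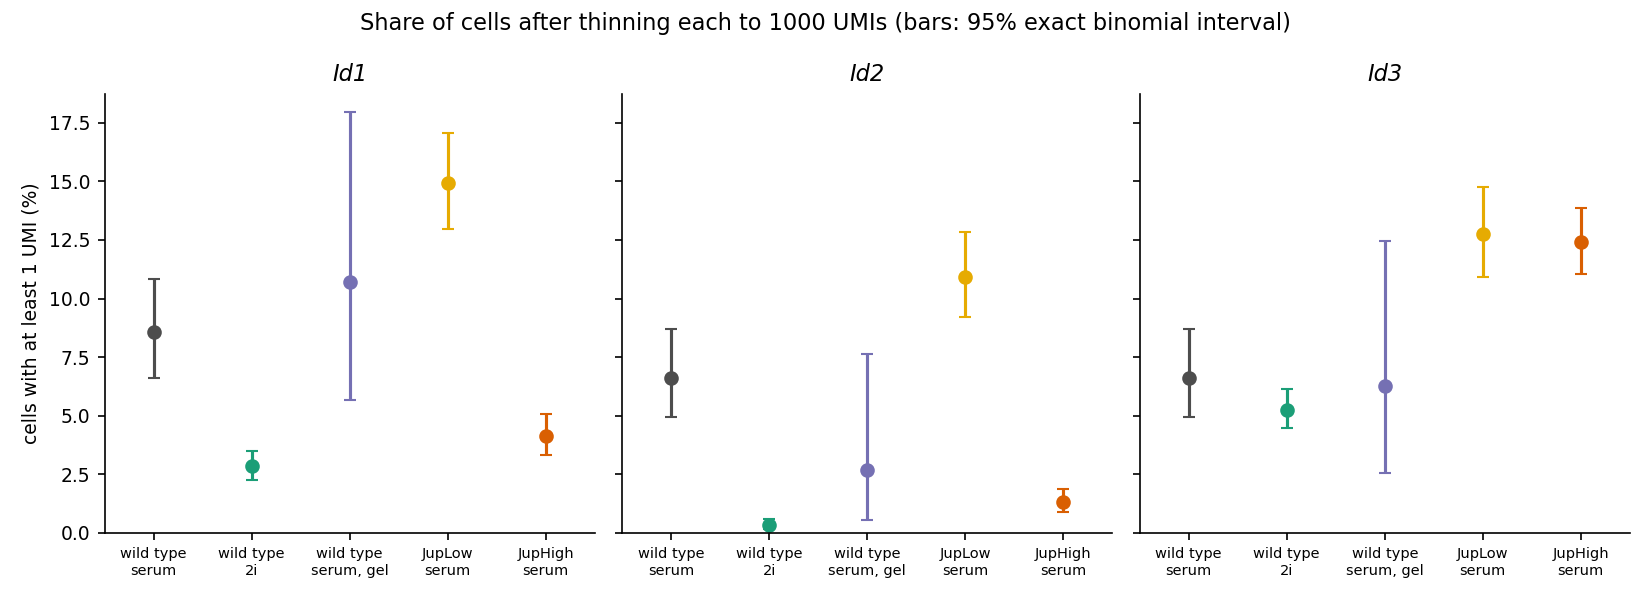
Share of cells with at least 1 UMI of Id1, Id2 and Id3 (vertical axis, percent) after each cell was thinned to 1000 UMIs, with 95% exact binomial intervals. Id1 and Id2 were seen in fewer cells of 2i and JupHigh than of JupLow, and Id3 in 12.8% of JupLow and 12.4% of JupHigh cells, with overlapping intervals.

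Cells with several UMIs of Id1 were seen mainly in the library labelled JupLow, where its level was also highest. There 23 of 1200 cells held 3 or more thinned UMIs of Id1, against 2 of 725 in wild type in serum, 0 of 2889 in 2i, 0 of 112 in gel and 1 of 2153 in JupHigh. The unthinned count of Id1 in JupLow reached 31 UMIs in 1 cell, and that of Id3 reached 28. The variance of thinned Id1 counts was 1.99 times their mean in JupLow, 1.37 times in gel, 1.26 times in wild type in serum, 1.21 times in JupHigh and 0.996 times in 2i, where a value of 1 is what random sampling alone gives. This ratio can rise with the level of a gene. The 5% of cells with the most Id1 held 56.1% of its unthinned UMIs in JupLow, 53.0% in serum, 63.6% in gel, 75.2% in 2i and 77.4% in JupHigh. That share is high where few cells hold the gene, as in 2i (6.89% of cells) and JupHigh (6.97%), so it does not rank the spread. For Id2 the ratio of variance to mean was 1.48 in gel, 1.22 in serum, 1.21 in JupLow, 1.12 in JupHigh and 0.997 in 2i, and for Id3 it was 1.60 in gel, 1.503 in JupLow, 1.21 in JupHigh, 1.10 in 2i and 1.05 in serum, where the gel values rest on 4 UMIs of Id2 and 9 of Id3. Summed over Id1, Id2 and Id3, at least 1 thinned UMI was seen in 18.8% of cells in serum, 8.13% in 2i, 17.0% in gel, 31.6% in JupLow and 17.1% in JupHigh. JupHigh and wild type in serum thus had like shares for the sum while differing in each member.

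Id3 was found more often in cells with Id1 in JupLow: 27.9% of the 179 cells with Id1 also held Id3 (21.5 to 35.1), against 10.1% of the other cells (8.31 to 12.1). In wild type in serum the shares were 16.1% (8.02 to 27.7) and 5.73% (4.09 to 7.78). In JupHigh they were 14.6% (8.01 to 23.7) and 12.3% (10.9 to 13.8), in 2i 9.76% and 5.13% and in gel 25% and 4%, each with overlapping intervals. Id2 and Id3 in JupLow gave 10.7% and 13.0%, also overlapping. Nanog, a core factor of naive pluripotency, was at 82.8 CPM in wild type in serum, 539 in 2i, 152 in gel, 92.4 in JupLow and 449.8 in JupHigh. Cells with Id3 held Nanog in 40.8% of cases in JupHigh (34.9 to 47.0) against 32.3% of cells without Id3 (30.2 to 34.5), and in 46.7% against 37.3% in 2i (38.6 to 55.0 and 35.5 to 39.1). The 2i intervals overlap, and in wild type in serum the shares were 6.25% and 7.68%, while 0 of 7 gel cells with Id3 held Nanog against 10.5% of the others. In JupLow they were 12.4% (7.64 to 18.7) and 6.69% (5.25 to 8.37), with overlapping intervals. Cells with Id1 held Nanog in 30.3% against 33.5% in JupHigh, 35.4% against 37.9% in 2i, 6.45% against 7.69% in serum and 6.15% against 7.64% in JupLow. In gel the order was the other way, 25% (3 of 12 cells, 5.49 to 57.2) against 8% (3.52 to 15.2), and in all 5 libraries the intervals for Id1 and Nanog overlapped. These are descriptions within libraries, since the cells of a library are not replicates.

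Upstream of the Id genes, the ligand was highest in the library labelled JupHigh, in which Id1 and Id2 were low. Bmp4 (chr14:46383520-46390669) was at 29.7 CPM in wild type in serum, 24.4 in 2i, 38.1 in gel, 52.8 in JupLow and 93.3 in JupHigh. Its log2 ratio was 1.65 (1.25 to 2.07) for JupHigh over serum, 0.83 (0.39 to 1.28) for JupLow over serum, 0.82 (0.55 to 1.10) for JupHigh over JupLow and -0.29 (-0.71 to 0.15) for 2i over serum. The ratio of 2i to serum was lower with cells thinned to 1000 UMIs (-0.99, -1.67 to -0.29) and over every deposited barcode (-0.56, -0.85 to -0.26), and JupLow over serum held 0 when thinned (0.51, -0.15 to 1.20). For 2i over serum, every deposited barcode adds 5905 barcodes under 500 UMIs in serum and 1 in 2i, so the sides are unlike. After thinning, Bmp4 was seen in 8.87% of JupHigh cells, 4.58% of JupLow cells, 3.17% of wild-type cells in serum and 1.83% in 2i. In gel the share was 1.79% (0.217 to 6.30), the lowest, on 2 cells, though its CPM there was above that in serum. Cells of JupHigh with Id3 held Bmp4 in 13.9% of cases (9.95 to 18.6) against 8.17% of cells without Id3 (6.97 to 9.49), while those with Id1 held it in 8.99% against 8.87%. In the other libraries the intervals for Id3 and Bmp4 overlapped, at 4.17% against 3.10% in serum, 3.95% against 1.72% in 2i, 5.23% against 4.49% in JupLow and 0 of 7 cells against 1.90% in gel.

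Among the receptor and the SMADs, only Smad5 in gel passed the count of 2-fold differences. Bmpr1a (chr14:34410734-34503341), a type I BMP receptor, was at 51.5 CPM in wild type in serum, 29.7 in 2i, 42.3 in gel, 65.0 in JupLow and 36.0 in JupHigh. Its log2 ratios were -0.80 (-1.13 to -0.45) for 2i over serum, -0.52 (-0.89 to -0.15) for JupHigh over serum and -0.85 (-1.17 to -0.54) for JupHigh over JupLow, each short of 2-fold. It passed 2-fold for 2i over serum with cells thinned to 1000 UMIs (-1.40) and for JupHigh over JupLow among cells with 2000 UMIs or more (-1.01). Other alternatives gave smaller differences. JupHigh over JupLow was -0.48 over every deposited barcode, and 2i over serum was -0.61 among cells with 2000 UMIs or more. Among the latter cells JupHigh over serum held 0 (-0.44, -0.89 to 0.01). Smad5 (chr13:56703010-56742377), a receptor-regulated SMAD, was at 32.2, 22.2, 72.0, 36.5 and 19.9 CPM in that order. Its log2 ratio of 1.16 (0.30 to 1.95) in gel rests on 17 UMIs, and it no longer reached 2-fold among cells with 2000 UMIs or more (0.62) or over every deposited barcode (0.72, on 33 UMIs in gel), while it was 2.07 when thinned. Smad1 (chr8:79338395-79399518), of the same class, was at 14.9, 12.4, 0, 21.5 and 10.2 CPM. With 0 UMIs in gel, the Poisson interval of Smad1 there reached up to 15.6 CPM, so gel was not separated from serum. Smad6 (chr9:63953076-64022059), an inhibitory SMAD that is itself a BMP target, was at 5.95, 6.28, 12.7, 9.73 and 4.41 CPM, on 3 to 52 UMIs. Between JupHigh and JupLow, Smad1, Smad5 and Smad6 had log2 ratios of -1.08 (-1.67 to -0.50), -0.87 (-1.30 to -0.45) and -1.14 (-2.06 to -0.25), all lower in JupHigh, as Bmpr1a was. For Smad1 the ratio was -0.69 (-1.68 to 0.31) when thinned, and -0.61 over every deposited barcode. For Smad5 it was -1.40 when thinned, and -0.39 (-0.74 to -0.04) over every deposited barcode. Over all genes at 50 CPM or more the median of that ratio was -0.13, and that of JupHigh over serum was -0.17.

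Of 48 other genes of the pathway (ligands, receptors, co-receptors, SMADs and their regulators, inhibitors, further targets and E proteins), 10 to 12 reached 50 CPM in a comparison. Between 2i and serum 3 of 11 were 2-fold lower and 1 was higher, against 14.3% and 10.9% of all genes at that level. Between JupHigh and JupLow 3 of 10 were lower and 0 higher (6.97% and 2.33% of all genes), and between JupHigh and serum 3 of 11 were lower and 0 higher (13.4% and 7.75%). Gel over serum gave 1 of 11 in each direction (10.7% lower and 7.5% higher of all genes) and JupLow over serum 0 of 12 in either (7.19% and 6.07%). The largest differences were in a target and a co-repressor. Dusp9, a phosphatase of ERK kinases and a BMP target in ES cells, was at 168.5 CPM in wild type in serum, 6.28 in 2i, 67.7 in gel, 144 in JupLow and 34.8 in JupHigh. Skil, whose product SnoN holds SMAD complexes in check, was at 145, 8.21, 110.1, 147 and 38.3 CPM. Both thus had the order 2i, JupHigh, gel and then serum and JupLow, with JupLow near serum where Id1 and Id2 were above it. The log2 ratio of JupHigh over JupLow was -2.05 (-2.33 to -1.78) for Dusp9 and -1.94 (-2.21 to -1.67) for Skil, and neither gene overlaps another.

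The type II receptor Bmpr2 was also lower in JupHigh than in JupLow (19.7 against 59.1 CPM, log2 ratio -1.58, -1.98 to -1.20), and stood at 45.1 CPM in wild type in serum and 10.6 in 2i. Among the E proteins, Tcf12 was at 53.5 CPM in serum, 19.4 in 2i and 18.1 in JupHigh, whereas Tcf4 went the other way, from 44.6 in serum to 110.6 in 2i (log2 ratio 1.31, 1.00 to 1.64) and 73.1 in JupHigh. Tcf12, Tcf4 and Bmpr2 overlap other genes, so their ratios to wild type in serum are less certain. Between JupHigh and JupLow, neither Tcf12 nor Tcf4 passed the count of 2-fold differences at 50 CPM. Smad7, the other inhibitory SMAD, was at 50.8 CPM in gel on 12 UMIs against 17.8 in serum (log2 ratio 1.51, 0.43 to 2.49).

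**Figure D4:**
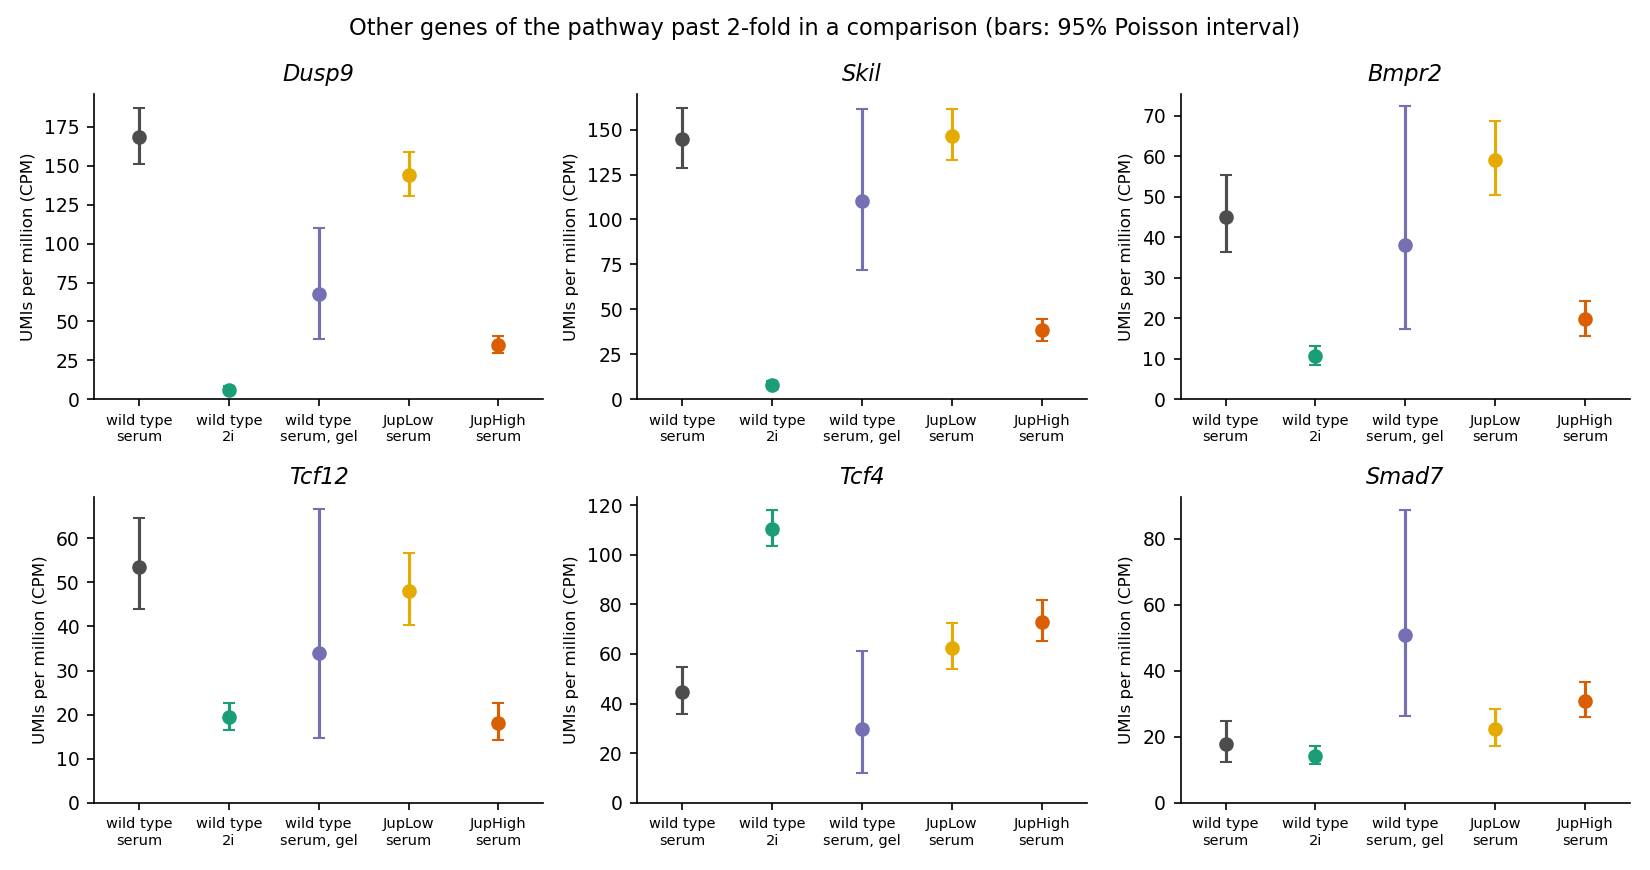
Level in CPM (vertical axis, starting at 0) of the 6 other pathway genes that differed 2-fold or more in a comparison, with 95% Poisson intervals. Dusp9 and Skil are lowest in 2i and next lowest in JupHigh, Tcf12 is low in the same 2 libraries, and Tcf4 is highest in 2i.

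The bulk libraries ask whether the same genes differ between gel and plastic without serum. Values are the authors' normalized signal, a read count divided by 1 factor per library. In 2i, Id1 was higher in gel, while the values of Id2 and Id3 lay lower there, Id2 untested for its low reads and Id3 tested without a call. Id1 was at 15.8, 14.7 and 15.1 in gel and at 6.23, 5.09 and 7.59 on plastic, so the groups did not overlap. Its mean was 15.2 ± 0.540 (SD, n = 3) in gel and 6.30 ± 1.25 (SD, n = 3) on plastic. The log2 fold change was 1.22 (SE 0.37), with an adjusted p of 0.0141 by limma with Benjamini-Hochberg adjustment, on 11 to 14 reads in gel and 5 to 15 on plastic. It was the 1 member called of 4 tested, where 18.3% of the 7878 tested genes were called higher in gel and 18.6% lower. The call was lost in limma without plastic replicate 1 (adjusted p = 0.0528) and without plastic replicate 2 (adjusted p = 0.0689), and thinned to the shallowest library Id1 did not pass the filter and was not tested. Id1 passed the filter on low reads through its gel libraries alone, so it could not have been called lower. Nothing in the labels says that the replicates are separate cultures, so p-values measure the spread between these samples, which may be technical, and in bulk fewer cells of a kind and less RNA per cell cannot be told apart.

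Id2 was at 1.13, 4.91 and 4.12 in gel and at 9.14, 12.5 and 10.6 on plastic, again without overlap and on 1 to 4 reads in gel. It did not pass the filter, and without a filter limma put its log2 difference at -1.70 (SE 0.51) with an adjusted p of 0.0224. Id3 was at 18.1, 17.2 and 17.9 in gel and at 24.1, 23.1 and 21.3 on plastic, without overlap, and its log2 fold change of -0.36 (SE 0.25) was not called by limma (adjusted p = 0.276). Groups without overlap were seen for 2 of the 4 tested members, Id1 and Id3, and for 49.5% of all tested genes. Bmpr1a was at 40.6, 41.7 and 27.5 in gel and 37.8, 34.4 and 22.8 on plastic, with a log2 fold change of 0.21 (limma adjusted p = 0.508). Smad5 was at 15.8, 11.1 and 8.24 in gel and 9.56, 12.5 and 16.7 on plastic (-0.15, limma adjusted p = 0.770). Both overlapped between the groups. Bmp4 (7.37 to 12.4 in gel, 5.82 to 7.59 on plastic), Id4 (5.50 to 6.77 and 4.57 to 6.07) and Smad1 (3.39 to 8.24 and 7.04 to 8.73) did not pass the filter and overlapped as well.

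**Figure D5:**
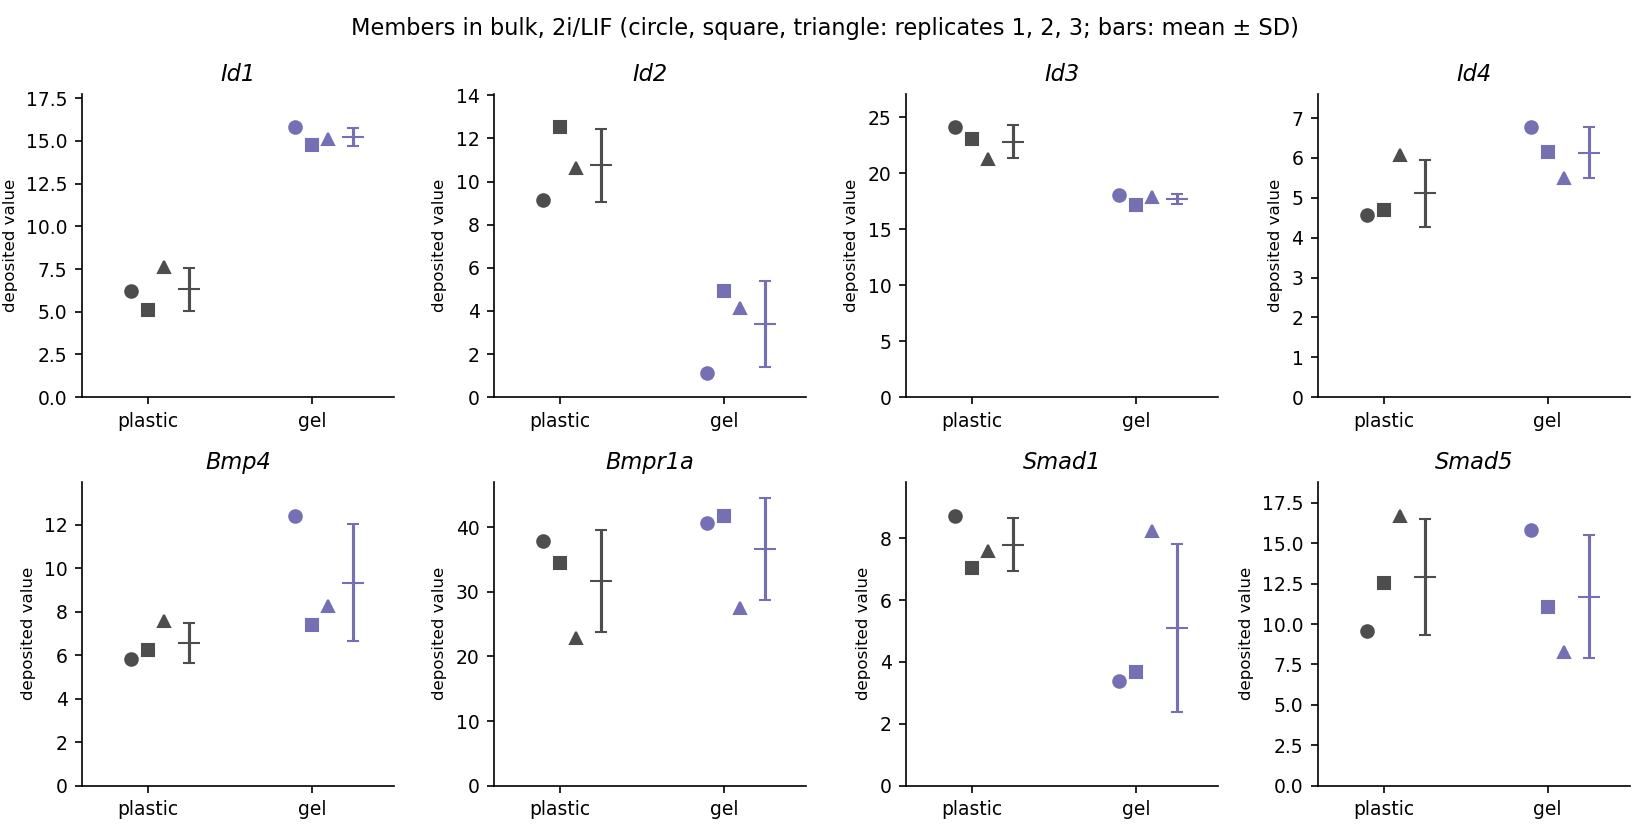
Deposited bulk signal (vertical axis, starting at 0) of 8 members in 2i on plastic and in gel, with each replicate as a symbol and mean ± SD beside it. Id1 in gel lies above all plastic replicates, Id2 and Id3 lie below them, and the other 5 overlap.

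Of the 48 other pathway genes, 28 were in the bulk table and 14 were tested. Limma called 4 higher in gel (Smad4, Smad7, Ski and Tcf4) and 2 lower (Skil and Tcf12), where 18.3% of all tested genes were called higher and 18.6% lower, and the median log2 fold change was 0.02 over the 14 and -0.02 over all. Smad4, Smad7 and Ski reached the level of the filter in all gel libraries but not in all plastic ones. Whether they were tested thus depended on their gel values, and their calls are to be read with that limit. Smad4, the partner shared by all receptor-regulated SMADs, was at 58.7, 36.8 and 44.0 in gel and 20.4, 26.2 and 10.6 on plastic (log2 fold change 1.33, SE 0.29, limma adjusted p = 0.00154). Ski, a co-repressor related to SnoN, rose by 1.47 (SE 0.27, limma adjusted p = 0.00037), and Smad7 by 1.16 (SE 0.29, limma adjusted p = 0.00447). Skil fell by 0.80 (SE 0.22, limma adjusted p = 0.00743), from 34.5, 40.7 and 37.9 on plastic to 21.4, 19.6 and 23.4 in gel. Among the E proteins, Tcf12 fell by 1.03 (limma adjusted p = 0.00570) and Tcf4 rose by 0.88 (limma adjusted p = 0.00791), the latter not called without gel replicate 1 (adjusted p = 0.0538).

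Markers of other cells moved with some of these results. The list of 8 primitive endoderm genes summed to 1168 CPM in wild type in serum, 209.9 in 2i, 288 in gel, 402 in JupLow and 169.6 in JupHigh, most of it from Sparc. Sparc alone was at 928, 206, 220, 370 and 152 CPM in that order. Cells picked by the list are thus largely cells with Sparc, and the list alone does not establish them as primitive endoderm. Cells with 3 or more UMIs of the list were 130 of 725 in wild type in serum, 131 of 2889 in 2i, 4 of 112 in gel, 125 of 1200 in JupLow and 23 of 2153 in JupHigh. In JupLow these cells held Id2 at 268 CPM against 108 in the others, and without them, in an alternative chosen after seeing the data, the log2 ratio of Id2 in JupLow over serum was 0.72 in place of 1.14. In wild type in serum Id2 went the other way, at 41.3 CPM in these cells against 65.9 in the others. In 2i it was at 6.47 against 4.04 CPM, on 4 UMIs in these cells, and in gel and JupHigh these cells held 0 UMIs of Id2. The same cells held Id1 at 268 CPM against 258 in the others in JupLow, and at 105 against 118 in wild type in serum. Without them Id1 and Id2 were still lower in 2i than in serum (-2.16 and -4.03) and in JupHigh than in JupLow (-2.62 and -2.97). The list of 8 fibroblast genes summed to 39.6 CPM in serum, 3.50 in 2i, 4.23 in gel, 28.5 in JupLow and 6.26 in JupHigh, with Dcn and Lum at 0 in serum and JupLow, and its part in the results was not tested. Mesoderm genes summed to at most 25.4 CPM. Neural ectoderm genes summed to 67.9 CPM in serum, 84.6 in 2i, 169 in gel, 171 in JupLow and 56.4 in JupHigh, of which Nes, an intermediate filament of neural precursors, made up 59.0, 6.52, 114, 86.2 and 3.48 CPM. Nes was thus low in 2i and JupHigh, as Id1 and Id2 were, and its part was not tested. Tubb3, a neuronal tubulin, had 0 UMIs in serum against 76.9 CPM in 2i, 50.8 in gel, 79.2 in JupLow and 45.0 in JupHigh, so the order of serum and 2i in the neural sum rests on that zero. In bulk, all 8 ES cell markers were in the table, and only 1 of 8 fibroblast genes, 1 of 8 primitive endoderm genes (Sparc) and 0 of 8 mesoderm genes were. The ES cell list summed to 7606 to 7839 in gel and 5643 to 6457 on plastic, and the 3 neural ectoderm genes in the table to 60.5 to 68.8 in gel and 88.8 to 97.2 on plastic, both without overlap, and their part in the bulk results was not tested.

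Of 4698 genes that reached 50 CPM in any library, those whose centred log2(CPM + 1) over the 5 libraries lay nearest to Id1 were Klf7, Bend4 and Baz1a, with root-mean-square differences of 0.21, 0.27 and 0.29. Klf7 was at 64.9, 11.7, 76.2, 101 and 17.9 CPM in wild type in serum, 2i, gel, JupLow and JupHigh. For Id2 they were Perp, 2200002D01Rik and Ptpn14 (0.23, 0.33 and 0.38), and Perp was at 48.6, 1.69, 25.4, 82.0 and 9.51 CPM. For Id3 they were Malat1, Actn4 and Usp34 (0.14, 0.23 and 0.25), and Malat1, a nuclear long noncoding RNA, was at 176, 209, 334, 424 and 410.4 CPM. Of these 9 genes Perp alone overlaps no other gene.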

How the data were processed

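Bulk values are a normalized signal, which the authors deposited after dividing each library's counts by 1 factor, as judged from the values: 100% came out as whole reads within 0.01. Recovered reads were 866721, 808903 and 707718 in gel and 2390575, 2583256 and 637235 on plastic. Groups were compared with limma 3.58.1 (R 4.3.3, trend) on log2(value + 0.5), which understates changes of low genes, after edgeR 4.0.16's expression filter on recovered reads, with Benjamini-Hochberg adjustment over 7878 genes at 0.05. The deposited single-cell values are UMI counts, per the values and the inDrop labels. The submitters' processing notes list STAR, featureCounts, DESeq2 and Scanpy, with builds mm10 and GRCm38, and no versions. Whether strand was used is not given in the sources used here.

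Barcodes with at least 1000 UMIs were kept, without those with 8 or more G at each end and without a doublet caller. Columns with no gene name (0.00509% to 0.499% of UMIs) and 1 broken line of the gel table (1504 UMIs) were dropped, and repeated symbols were summed. Ratios of summed UMIs have exact conditional Poisson intervals at 95%, and levels have Poisson intervals. Bulk columns whose names mark gel and plastic together were taken as plastic, those marking gel alone as gel. The title and the description of plastic replicate 2 give different numbers, and the title was followed.

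On simulated data with 200 genes of the bulk comparison changed 4-fold, of 7684 tested, 99.5% were called and 1.97% of calls were false. The data themselves gave 2906 calls, and the simulation held 4-fold changes only. It therefore gives no rate for smaller changes, such as the log2 fold change of 1.22 for Id1. Replicate libraries differed by more than sampling noise (chi-square per degree of freedom 1.58 to 2.20). All 9 members were named in every library, and other pathway genes were named where called in bulk or past 2-fold at 50 CPM. Likeness was limited to the 3 nearest genes each for Id1, Id2 and Id3. The members and lists were chosen with earlier results of these data known. Alternatives were another pseudocount (2), no filter, edgeR, DESeq2 1.42.0, thinning, a replicate block, leaving out replicates, other limits on UMIs (2000, every barcode, 3 times the median) and other scalings.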

Additional observations from a re-analysis of the deposited data

Results flagged for a closer look

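Id1 and Id2 were set apart because the 2 Jup lines lay on opposite sides of wild type in serum, each by more than counting error. The log2 ratio to wild type in serum of Id1 was 1.17 for the JupLow label and -1.41 for the JupHigh label. That of Id2 was 1.14 and -2.13. With 1 library of each line the difference was not tested, and differences between clones or cultures cannot be told apart from the labelled level of plakoglobin.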

How the results depend on the processing

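The number of genes called in bulk, 2906, stayed within 1.5 times under every alternative, from 2188 (DESeq2) to 3158 (edgeR), with 2988 under a replicate block and 2361 to 2833 with 1 replicate left out. Deviations of same-numbered libraries correlated by -0.05, 0.02 and 0.02, so no pairing by number was seen. A weak pairing could have been missed under the counting noise of these libraries. The log2 fold change of Id1 was 1.22 under the replicate block (limma adjusted p = 0.0228) and 1.09 to 1.36 with 1 replicate left out, where adjusted p ranged from 0.0180 to 0.0689 and missed 0.05 without plastic replicate 1 and without plastic replicate 2. Thinned to the shallowest library, Id1 did not pass the filter and was not tested. Of 371 alternative single-cell ratios, 347 stayed within the counting interval of the value reported, 24 moved outside it, and no ratio whose interval left out 0 changed sign. The sign did change in 18 of the 371, all for ratios whose interval held 0. Gel over serum for Id1 ranged from -0.31 (every deposited barcode) to 0.77 (2000 UMIs or more), Smad5 in gel from 0.62 (2000 UMIs or more) to 2.07 (thinned), Id3 in gel from 0.05 (every barcode) to 0.94, and Id2 in gel was 2-fold lower over every barcode and when thinned. Over every deposited barcode Id1 was at 0.87 for JupLow over serum and -2.28 for JupHigh over JupLow, and Id2 at 0.81 for JupLow over serum. That setting adds unlike parts to the libraries. Barcodes under 500 UMIs were 5905 of 8317 in serum, 4405 of 8513 in JupLow, 1343 of 4688 in JupHigh, 439 of 891 in gel and 1 of 4697 in 2i. With cells thinned to 1000 UMIs, 2i over serum was -1.81 for Id1, -4.58 for Id2 and -0.30 for Id3, JupHigh over serum -1.10 and JupHigh over JupLow -2.27 for Id1, and JupLow over serum 0.78 for Id2. Without cells with 3 or more primitive endoderm UMIs, chosen after seeing the data, the last was 0.72. The cause of these shifts was not tested, except that thinning gives each cell equal weight. Thinned to 2000 in place of 1000 UMIs, all 15 shares of cells for Id1, Id2 and Id3 were higher, and that of Id3 was then higher in JupHigh than in JupLow. These shares also cover fewer cells, those with 2000 UMIs or more (428 of 725 in serum, 45 of 112 in gel), so depth and the choice of cells cannot be told apart. Scaling to the median ratio subtracted a log2 median of -0.12 to 0.04. Depth limits the gel library (112 cells) and bulk genes of under 15 reads.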

Other observations

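The library labelled JupHigh was also set against wild type in 2i, a comparison added after seeing the data, since these 2 tables treat overlapping genes alike (8-fold differences on 0.264% of overlapping and 0.754% of other genes). Compared with 2i, JupHigh held more Bmp4 (log2 ratio 1.94, 95% counting interval 1.69 to 2.19), Id2 (1.70, 1.07 to 2.34), Id3 (1.10, 0.94 to 1.27) and Id1 (0.69, 0.40 to 0.97), and less Id4 (-1.75, -2.55 to -1.02). Bmpr1a (0.28, -0.02 to 0.57), Smad1 (-0.28, -0.83 to 0.24), Smad5 (-0.15, -0.54 to 0.22) and Smad6 (-0.51, -1.35 to 0.27) had intervals that hold 0. Over the alternatives the ratio of Bmpr1a ranged from 0.17 to 0.54, so its place in this group depends on the setting. Id1 and Id2 in JupHigh thus lay between 2i and wild type in serum, while Bmp4 and Id3 lay above both.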
